A study of Mus musculus with 14 samples.

Results

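The 10 genes described here carry out or feed the making of triglyceride in brown adipose tissue. They are Gk, Pck1, Gpam, Gpat3, Gpat4, Lpin1, Lpin2, Lpin3, Dgat1 and Dgat2, found by symbol among the 55471 genes of the count table, and all 10 passed the filter on low counts that left 15949 genes for testing. The tissue came from male mice, 10 weeks old and kept for 2 weeks at 30 °C, a temperature at which a mouse need not make extra heat. The 4 groups sequenced were AdC3KO at 4 °C for 6 h (4 libraries), WT at 4 °C for 6 h (4 libraries), AdC3KO at 30 °C (3 libraries) and WT at 30 °C (3 libraries). AdC3KO mice lack CLSTN3B, an adipocyte protein made from the Clstn3 locus, in adipocytes only. What drives the deletion is not stated in the text used here. Whether libraries come from different animals is not stated outright, and the p-values therefore speak only for the spread among libraries, which may in part be technical.

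Triglyceride is built on glycerol 3-phosphate, which a cell makes from glucose, from smaller precursors by glyceroneogenesis, or by phosphorylating free glycerol. Glycerol 3-phosphate acyltransferases add the first fatty acyl chain, acylglycerol-phosphate acyltransferases add the next, lipins remove the phosphate to leave diacylglycerol, and DGAT enzymes add the last chain. White adipocytes are known for little glycerol kinase, so that glycerol freed by lipolysis leaves the cell, whereas brown adipocytes in the cold are known to take up glycerol and fatty acids and to remake triglyceride while they burn it.

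Gene counts per library ran from 19932180 to 29026445, and levels are given as CPM, counts scaled to a common library size. The targeted locus, Clstn3, was low in AdC3KO, with a mean and SD of 65.8 ± 11.9 CPM at 4 °C (WT 1109.6 ± 97.4, n = 4 each) and of 15.8 ± 1.31 CPM at 30 °C (WT 207 ± 23.2, n = 3 each). All 8 brown adipocyte markers had counts in every group. Skeletal muscle transcripts were present in 5 libraries, with a mean log2 CPM over 10 muscle genes of 4.00 in AdC3KO library 3 and 0.83 in WT library 2 at 4 °C, and of 1.73 and 0.82 in AdC3KO libraries 1 and 2 and 2.75 in WT library 3 at 30 °C, against −2.98 to −2.43 in the other 9. Liver markers, of interest because liver also expresses Gk and Pck1, summed to at most 0.332 CPM in any library.

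RefSeq (GRCm38.p6) gave promoter windows for 7 of the 10 genes, 11 windows in all. Those of 3 genes that supply or first acylate glycerol 3-phosphate are shown as examples. The genes rose in the cold by very different amounts, and each shown window held a motif searched for. Each window is the 250 bases before the transcript start, 5′ to 3′, with matches in capitals. Gk lies at chrX:85776820-85777069 (minus strand), Pck1 at chr2:173152823-173153072 (plus strand), and the Gpam window at chr19:55099478-55099727 (minus strand) precedes an inner start of the gene.
Gk: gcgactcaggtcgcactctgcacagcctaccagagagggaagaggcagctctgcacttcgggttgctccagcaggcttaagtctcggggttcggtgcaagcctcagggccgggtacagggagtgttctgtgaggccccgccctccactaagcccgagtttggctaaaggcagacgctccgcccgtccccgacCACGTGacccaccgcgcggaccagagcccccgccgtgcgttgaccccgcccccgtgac
Pck1: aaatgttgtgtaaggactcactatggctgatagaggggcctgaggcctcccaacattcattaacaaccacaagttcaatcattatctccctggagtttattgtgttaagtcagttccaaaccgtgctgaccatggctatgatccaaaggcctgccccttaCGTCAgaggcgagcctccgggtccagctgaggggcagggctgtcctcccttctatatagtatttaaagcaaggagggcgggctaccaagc
Gpam: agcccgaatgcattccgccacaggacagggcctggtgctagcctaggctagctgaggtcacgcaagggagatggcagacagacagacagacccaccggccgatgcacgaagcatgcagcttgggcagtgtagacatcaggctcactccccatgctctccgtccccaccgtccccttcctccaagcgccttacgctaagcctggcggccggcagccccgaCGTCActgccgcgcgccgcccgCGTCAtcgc
In Gk the capitals mark an E-box, CACGTG, 58 to 53 bases before the start. In Pck1 they mark the core of a cAMP response element, TGACG, read on the opposite strand as CGTCA, 90 to 86 bases before the start. A cAMP response element in this stretch is known from the rat gene. The Gpam window shown held that core at 31 to 27 and again at 9 to 5 bases before the start. Both strands were searched for 5 motifs. Over 32851 RefSeq mouse promoters, windows of the same length held CACGTG in 6.02%, TGACG in 17.77%, the full TGACGTCA in 1.55%, the oestrogen-related receptor element TCAAGGTCA in 0.39% and the C/EBP motif TTGCNNAA in 9.56%. The Gpat3 window, not shown, also held the TGACG core, 1 Lpin2 window held that core overlapping an E-box, and another Lpin2 window held the C/EBP motif. The other Gpam window (chr19:55127239-55127488), before the outer start of the gene, held none of the 5 motifs. Neither TGACGTCA nor TCAAGGTCA occurred in any of the 11 windows. A match is a string of letters and not a shown binding site.

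After 6 h at 4 °C most of the 10 genes rose in both genotypes, with glycerol kinase by far the most changed and the last step split between a rising Dgat1 and a falling Dgat2. The steps did not all move the same way: summed per kb of exon, the first acylation step was higher in the cold, the lipin sum overlapped between temperatures and the DGAT sum was lower, with values given for each family. In AdC3KO tissue 8 of the 10 genes were higher at 4 °C and 2 were lower at an adjusted p of at most 0.05. In WT tissue 8 were higher, 1 was lower and Lpin1 was not called. The edgeR quasi-likelihood test was used, with Benjamini-Hochberg adjustment over all genes tested. Such calls were common in these data: of all genes tested, 63% were called in AdC3KO (31% higher, 32.1% lower) and 61.4% in WT (30.6% higher, 30.8% lower). The counts of 10 and 9 called genes are to be read against those shares. The median log2 fold change of the 10 genes was 1.31 in AdC3KO and 1.43 in WT, beside −0.06 and −0.03 over all genes tested. These genes and the lists below were chosen with earlier results of these data known. Their medians therefore describe the chosen genes and are no test of the pathway. The libraries at 4 °C and 30 °C did not overlap for 9 of the 10 genes in each genotype, which held for 64.1% of all genes in AdC3KO and 60.3% in WT.

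**Figure D1:**
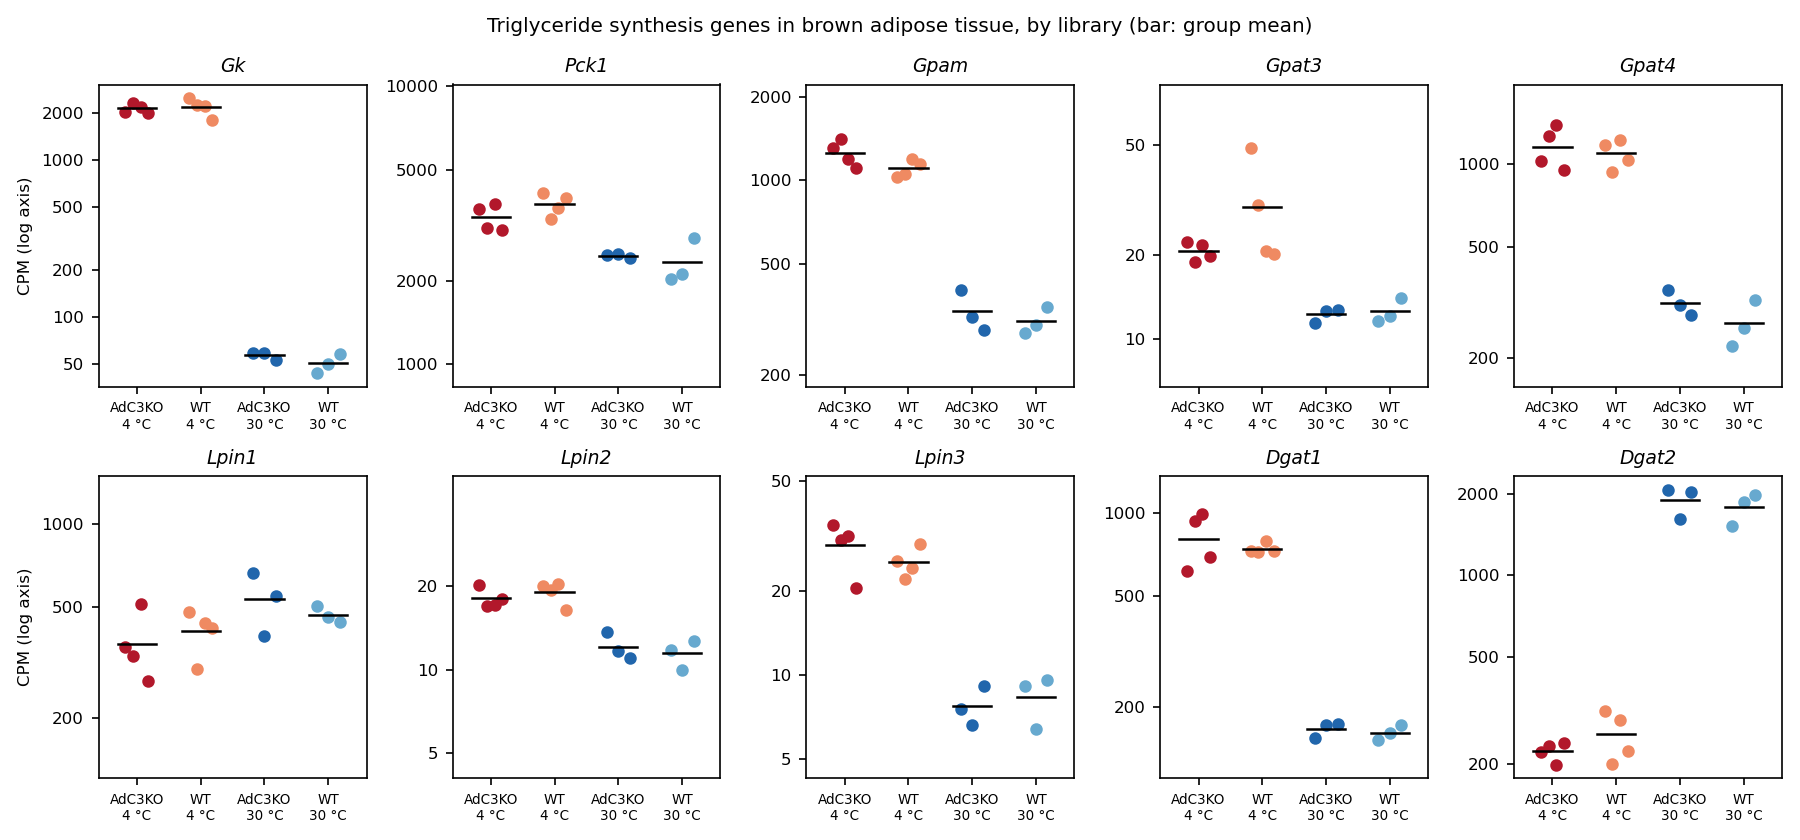
CPM (scaled counts, log axis) of the 10 genes in each of the 14 libraries, grouped as AdC3KO at 4 °C, WT at 4 °C, AdC3KO at 30 °C and WT at 30 °C; points are libraries and bars are group means. Gk lies between 1788 and 2478 CPM at 4 °C, against 44.0 to 59.2 CPM at 30 °C, and Dgat2 between 199.8 and 316 CPM, against 1514 to 2070 CPM.

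Gk encodes glycerol kinase, which phosphorylates glycerol to glycerol 3-phosphate (chrX:85701937-85776819, minus strand, GRCm38). In AdC3KO tissue it had 2023, 2327, 2189.9 and 1990.4 CPM at 4 °C, against 59.2, 59.2 and 53.3 CPM at 30 °C. In WT tissue it had 2478, 2233, 2196 and 1788 CPM at 4 °C, against 44.0, 50.0 and 58.7 CPM at 30 °C. Every cold library lay more than an order of magnitude above every 30 °C library, and the genotypes overlapped at both temperatures. The log2 fold change was 5.22 ± 0.12 in AdC3KO (SE, 37.2-fold, adjusted p = 1.07e-12 in edgeR) and 5.42 ± 0.12 in WT (SE, 42.7-fold, adjusted p = 9.44e-13 in edgeR). Ranked by fold change among the 15949 genes, Gk was 82nd from the top in AdC3KO and 68th in WT. The antisense gene Gm14764 shares 84 exonic bases with Gk and had 18 counts over all libraries, against 383909 for Gk.

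The other kinase genes carried no such signal. Gykl1 had 0 counts among 336228278 in all libraries, which allows a level of up to 0.00892 CPM (3 counts, counting error only), and Gk2 had 1 count. Gk5, a further kinase family member, fell to 5.10 ± 1.27 CPM in AdC3KO at 4 °C, against 14.1 ± 1.80 CPM at 30 °C, a log2 fold change of −1.46 ± 0.21 (SE, adjusted p = 1.74e-05 in edgeR). In WT Gk5 fell to 4.34 ± 0.871 CPM at 4 °C, against 12.4 ± 2.89 CPM at 30 °C, a log2 fold change of −1.52 ± 0.22 (SE, adjusted p = 1.47e-05 in edgeR).

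Pck1 encodes cytosolic phosphoenolpyruvate carboxykinase, which commits precursors to glyceroneogenesis (chr2:173153048-173159273). It was abundant in every group and rose much less than Gk. In AdC3KO it had 3616, 3085, 3763 and 3053 CPM at 4 °C, against 2469, 2493 and 2421 CPM at 30 °C. In WT it had 4148, 3327, 3662 and 3973 CPM at 4 °C, against 2032.5, 2121 and 2851 CPM at 30 °C. The temperatures did not overlap in either genotype, but WT library 3 at 30 °C, one of the libraries with muscle transcripts, lay well above the other WT libraries at that temperature. The log2 fold change was 0.46 ± 0.13 in AdC3KO (SE, adjusted p = 0.00686 in edgeR) and 0.69 ± 0.13 in WT (SE, adjusted p = 0.000293 in edgeR). The AdC3KO call was lost with upper-quartile scaling (0.22, adjusted p = 0.14 in edgeR), under which the median of all genes was −0.29. It was also lost without the libraries with muscle transcripts, where the value was 0.42 and only 1 AdC3KO library was left at 30 °C.

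Of the other genes that carry glycerol or that feed, make or use glycerol 3-phosphate, 7 of the 11 listed were tested, and 2 rose and 2 fell in each genotype. That is 4 of 7 called in each, close to the 63% of all genes called in AdC3KO and the 61.4% in WT. Aqp7, the glycerol channel of adipocytes, rose to 393 ± 19.7 CPM in AdC3KO at 4 °C, against 273 ± 30.6 CPM at 30 °C (log2 0.52 ± 0.10, SE). Gpd2, the mitochondrial enzyme that uses glycerol 3-phosphate as an electron donor, rose to 1324 ± 111 CPM in AdC3KO at 4 °C, against 668 ± 98.3 CPM at 30 °C (log2 0.99 ± 0.17, SE). Both rose similarly in WT, by 0.51 ± 0.10 and 0.90 ± 0.17 (SE). Gpd1l, related to the cytosolic dehydrogenase, fell by 2.17 on the log2 scale in AdC3KO and by 1.98 in WT, and Gpd1 itself, the cytosolic dehydrogenase, was not called.

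The first acylation is made by Gpam at the mitochondrial outer membrane and by Gpat3 and Gpat4 at the endoplasmic reticulum. Gpam (chr19:55067268-55127238) spanned 1108 to 1413 CPM at 4 °C, against 289 to 403 CPM at 30 °C, in AdC3KO. In WT it spanned 1030.1 to 1191 CPM at 4 °C, against 283 to 349 CPM at 30 °C. Its log2 fold change was 1.89 ± 0.12 in AdC3KO (SE, adjusted p = 4.7e-09 in edgeR) and 1.83 ± 0.12 in WT (SE, adjusted p = 7.3e-09 in edgeR). Gpat4 (chr8:23171265-23208346) moved like it, spanning 949 to 1381 CPM at 4 °C, against 285 to 351 CPM at 30 °C, in AdC3KO. In WT Gpat4 spanned 934 to 1223 CPM at 4 °C, against 220.2 to 324 CPM at 30 °C. Its log2 fold change was 1.87 ± 0.15 in AdC3KO (SE, adjusted p = 5.38e-08 in edgeR) and 2.03 ± 0.15 in WT (SE, adjusted p = 2.6e-08 in edgeR).

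Gpat3 (chr5:100845713-100899102) was the scarce member of the family and its rise was smaller. In AdC3KO it had 22.3, 18.9, 21.7 and 19.9 CPM at 4 °C, against 11.4, 12.6 and 12.7 CPM at 30 °C. In WT it had 48.5, 30.3, 20.8 and 20.3 CPM at 4 °C, against 11.6, 12.1 and 14.005 CPM at 30 °C. Temperatures did not overlap in either genotype, and WT library 1 at 4 °C stood above every other library. The log2 fold change was 0.76 ± 0.23 in AdC3KO (SE, adjusted p = 0.0124 in edgeR) and 1.25 ± 0.23 in WT (SE, adjusted p = 0.000409 in edgeR). Without WT library 1 at 4 °C the WT value was 0.90. The AdC3KO call was lost with upper-quartile scaling (0.52, adjusted p = 0.0679 in edgeR) and with no filter on low counts (0.67, adjusted p = 0.0656 in edgeR). It was also lost without the libraries with muscle transcripts, where the value was 0.67 and only 1 AdC3KO library was left at 30 °C. The antisense gene 4930458D05Rik shares 1052 exonic bases with Gpat3 and had 433 counts against 6304 for Gpat3, and Gm42987 shares 259 bases on the same strand and had 35 counts. No source used here says whether the counting used strand, so reads of these overlapping genes cannot be told apart with certainty.

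Per kb of exon, Gpam supplied about as much RNA as Gpat3 and Gpat4 together in every group. The share of Gpam in the summed CPM per kb of the 3 genes was 51.5 ± 4.01% in AdC3KO and 49.2 ± 3.17% in WT at 4 °C (SD, n = 4 each), and 49.9 ± 1.90% in AdC3KO and 51.9 ± 2.01% in WT at 30 °C (SD, n = 3 each). The sum itself was 367 ± 41.4 CPM per kb in AdC3KO at 4 °C, against 101 ± 13.5 at 30 °C, and 338 ± 25.1 in WT at 4 °C, against 90.3 ± 13.4 at 30 °C. The log2 ratio of Gpam to the others differed between temperatures by −0.03 (exact permutation p = 0.757, two-sided, temperature labels permuted within genotype; adjusted p = 0.908 over the 6 ratio tests made).

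Among the 14 other acylation and phosphatase genes on the list, 9 rose and 1 fell in each genotype, with a median log2 fold change of 0.40 in both. The shares called and higher over all genes, 31% in AdC3KO and 30.6% in WT, apply to this and to the lists that follow. Plpp1, a phosphatase of phosphatidic acid and related lipids, stood out in size, at 41.5 ± 9.34 CPM in AdC3KO at 4 °C, against 6.90 ± 0.780 CPM at 30 °C (log2 2.59 ± 0.15, SE). In WT Plpp1 had 38.3 ± 4.56 CPM at 4 °C, against 7.32 ± 0.200 CPM at 30 °C (log2 2.39 ± 0.15, SE). Of the genes for the next acylation, Agpat3 rose by 0.45 ± 0.11 and Agpat5 by 0.44 ± 0.12 in AdC3KO on the log2 scale (SE). Agpat4, of the same family, rose by 0.75 ± 0.24 in AdC3KO and 0.81 ± 0.24 in WT (log2, SE) at a low level, with a cold mean of 3.94 CPM in AdC3KO (3.72 in WT), while Agpat2, which adipocytes need to store fat, was not called.

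The lipins are phosphatidic acid phosphatases that make diacylglycerol, and Lpin1 is the main form in adipose tissue and skeletal muscle. Lpin1 (chr12:16535669-16610966) did not share in the rise. In AdC3KO it had 362, 335, 515 and 271 CPM at 4 °C, against 665, 395 and 548 CPM at 30 °C. In WT it had 482, 301, 440.1 and 421.5 CPM at 4 °C, against 505, 461 and 445 CPM at 30 °C. The temperatures overlapped in both genotypes. Of the 5 libraries with muscle transcripts, AdC3KO library 3 at 4 °C and AdC3KO library 1 at 30 °C held the highest Lpin1 of their groups, and WT library 2 at 4 °C, AdC3KO library 2 at 30 °C and WT library 3 at 30 °C held the lowest of theirs. The part of muscle RNA in these values was not tested. The log2 fold change was −0.53 ± 0.21 in AdC3KO (SE, adjusted p = 0.0406 in edgeR) and −0.19 ± 0.21 in WT (SE, adjusted p = 0.451 in edgeR). The AdC3KO call was lost in 11 of the 22 alternative fits. It was lost without AdC3KO library 1, 2 or 4 at 4 °C, WT library 4 at 4 °C, AdC3KO library 1 or 3 at 30 °C, or any 1 WT library at 30 °C, with values of −0.53 to −0.35 and adjusted p of 0.0518 to 0.213 in edgeR. It was also lost with no filter on low counts (−0.63, adjusted p = 0.0665 in edgeR) and when only AdC3KO libraries were fitted (−0.55, adjusted p = 0.0698 in edgeR). The value nearest to 0, −0.35, came without AdC3KO library 1 at 30 °C.

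Lpin2 and Lpin3, the scarcer lipins, both rose. Lpin2 (chr17:71182560-71249817) spanned 16.9 to 20.2 CPM in AdC3KO at 4 °C, against 10.96 to 13.6 CPM at 30 °C, and 16.4 to 20.3 CPM in WT at 4 °C, against 9.94 to 12.7 CPM at 30 °C. Lpin3 (chr2:160880670-160906002) spanned 20.6 to 34.7 CPM in AdC3KO at 4 °C, against 6.62 to 9.12 CPM at 30 °C, and 22.1 to 29.6 CPM in WT at 4 °C, against 6.39 to 9.61 CPM at 30 °C. The temperatures did not overlap for either gene. The log2 fold change of Lpin2 was 0.58 ± 0.12 in AdC3KO (SE, adjusted p = 7e-04 in edgeR) and 0.73 ± 0.12 in WT (SE, adjusted p = 9.6e-05 in edgeR). That of Lpin3 was 1.92 ± 0.18 in AdC3KO (SE, adjusted p = 2.49e-07 in edgeR) and 1.60 ± 0.18 in WT (SE, adjusted p = 1.85e-06 in edgeR). Lpin2 shares a 102-base stretch at 90.2% identity with Zcchc4, so a small part of its counts could be shared.

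The lipin mix was less dominated by Lpin1 in the cold. Per kb of exon, Lpin1 made up 79.9 ± 3.11% of the lipin sum in AdC3KO at 4 °C, against 94.6 ± 0.971% at 30 °C, and 83.2 ± 2.22% in WT at 4 °C, against 93.8 ± 1.13% at 30 °C (SD). The log2 ratio of Lpin1 to the other lipins differed between temperatures by −1.88 (exact permutation p = 0.000816, two-sided, the smallest that 1225 splits can give; adjusted p = 0.00245 over 6 ratio tests). All 8 cold libraries had a lower ratio than all 6 libraries at 30 °C. The lipin sum, at 47.8 ± 11.7 CPM per kb in AdC3KO at 4 °C, against 58.5 ± 14.2 at 30 °C, and 51.0 ± 8.55 in WT at 4 °C, against 51.9 ± 3.33 at 30 °C (SD), overlapped between temperatures.

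The last acyl chain is added by DGAT1 or DGAT2, enzymes of unrelated sequence; DGAT2 is known for using newly made fatty acids and DGAT1 for re-esterifying fatty acids freed by lipolysis. Dgat1 (chr15:76502015-76511953) had 618, 929.8, 987 and 691 CPM in AdC3KO at 4 °C, against 155, 172 and 173 CPM at 30 °C. In WT it had 729.6, 722, 788 and 729.7 CPM at 4 °C, against 152, 160.5 and 172 CPM at 30 °C. It was higher in every cold library, and its spread was wide in AdC3KO and narrow in WT at 4 °C. The log2 fold change was 2.27 ± 0.13 in AdC3KO (SE, adjusted p = 2.21e-09 in edgeR) and 2.20 ± 0.13 in WT (SE, adjusted p = 3.19e-09 in edgeR).

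Dgat2 (chr7:99153658-99182719) moved the other way. It had 222, 234, 199.8 and 241 CPM in AdC3KO at 4 °C, against 2069.7, 1613 and 2032 CPM at 30 °C. In WT it had 316, 201, 292 and 224 CPM at 4 °C, against 1514, 1862.5 and 1972 CPM at 30 °C. All cold libraries lay far below all libraries at 30 °C. The log2 fold change was −3.09 ± 0.15 in AdC3KO (SE, 8.49-fold lower, adjusted p = 2.3e-10 in edgeR) and −2.79 ± 0.15 in WT (SE, 6.91-fold lower, adjusted p = 6.07e-10 in edgeR). Ranked from the most lowered gene, Dgat2 was 323rd in AdC3KO and 425th in WT.

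The 2 changes together turned the DGAT mix over. Dgat2 made up 26.3, 19.98, 16.7 and 25.7% of the summed DGAT CPM per kb in AdC3KO at 4 °C, against 93.0, 90.3 and 92.1% at 30 °C. In WT it made up 30.0, 21.7, 26.8 and 23.3% at 4 °C, against 90.8, 92.0 and 91.9% at 30 °C. The log2 ratio of Dgat2 to Dgat1 differed by −5.33 between temperatures in AdC3KO and by −5.01 in WT, −5.17 on average (exact permutation p = 0.000816, two-sided, the smallest that 1225 splits can give; adjusted p = 0.00245 over 6 ratio tests). The sum of both was lower in the cold, at 337 ± 56.2 CPM per kb in AdC3KO at 4 °C, against 672 ± 80.5 at 30 °C, and 327 ± 24.1 in WT at 4 °C, against 631 ± 80.5 at 30 °C (SD).

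**Figure D2:**
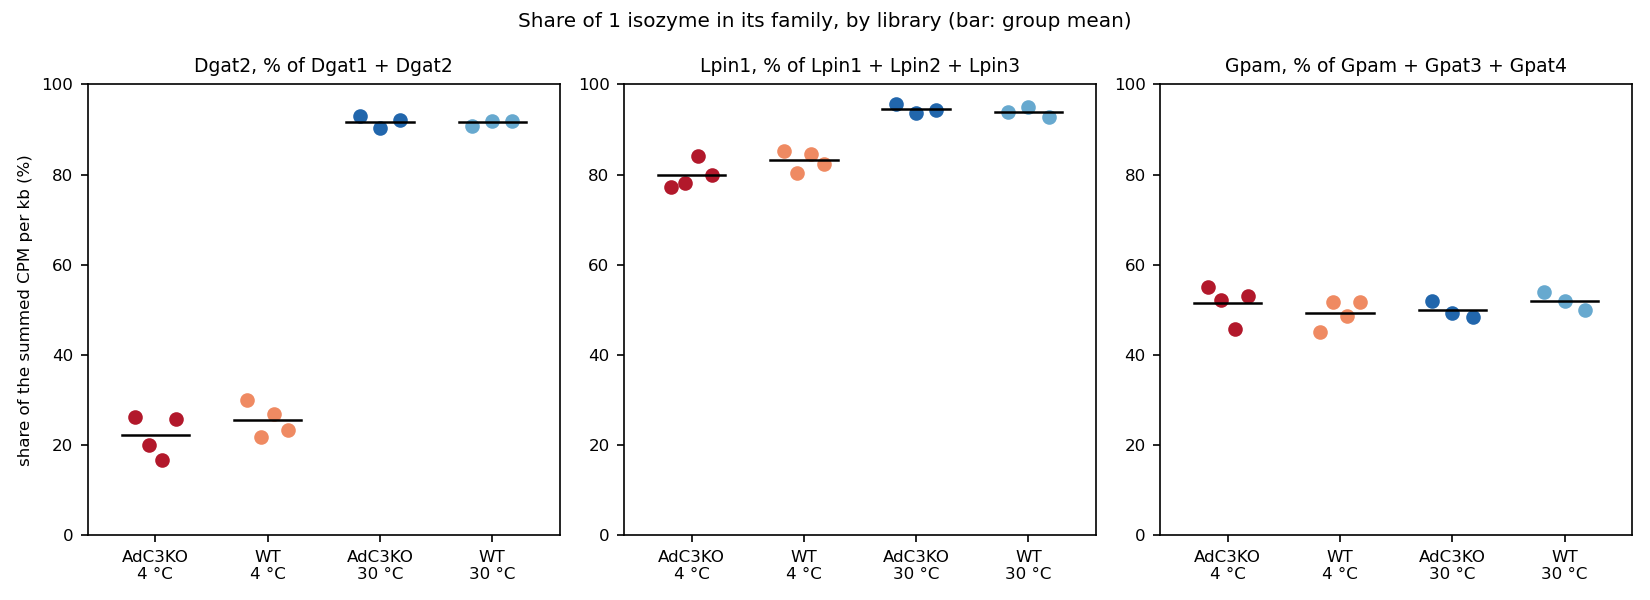
Share (%) of Dgat2 in the DGAT sum, of Lpin1 in the lipin sum and of Gpam in the sum of Gpam, Gpat3 and Gpat4, from CPM per kb of exon in each library; points are libraries and bars are group means. The Dgat2 share lies between 16.7 and 30.0% at 4 °C, against 90.3 to 93.0% at 30 °C, while the Gpam share stays near 50 in all 4 groups (means 49.2 to 51.9%).

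The order of levels among the 10 genes changed with temperature. Per kb of exon at 4 °C, Pck1 was highest (985 CPM per kb in AdC3KO, 1102 in WT), followed by Gk (275 and 281), Dgat1 (264 and 243), Gpam (188 and 166) and Gpat4 (173 and 163), then Dgat2 (72.7 and 83.7) and Lpin1 (38.3 and 42.5). Gk and Dgat1 overlapped between libraries in both genotypes, as did Gpam and Gpat4, and Dgat1 and Gpam overlapped in AdC3KO only. Lpin3 (7.96 and 6.89) and Gpat3 (5.91 and 8.56) overlapped, and Lpin2 was lowest (1.47 and 1.55). At 30 °C Pck1 (718 in AdC3KO, 681 in WT) and Dgat2 (618 and 578) led and overlapped between libraries in WT only, Lpin1, Dgat1, Gpam and Gpat4 followed between 40.0 and 55.5 with overlapping neighbours, and Gk (7.39 and 6.57) was in place 7, above Gpat3, Lpin3 and Lpin2. By this measure Gk exceeded 99.1% of all tested genes at 4 °C in each genotype, against 75.8% in AdC3KO and 73.5% in WT at 30 °C.

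Markers of several cell types moved with temperature too. The summed level of the 8 brown adipocyte markers ranged from 27662 to 36339 CPM in AdC3KO at 4 °C, against 10198 to 13592 at 30 °C, and from 26057 to 35971 CPM in WT at 4 °C, against 10945 to 12854 at 30 °C. Abundant markers weigh most in this sum, such as Fabp4, with means of 10158 CPM at 4 °C and 5386 CPM at 30 °C in AdC3KO. Ppara, on the same list, had a lower mean in the cold, at 131 against 192 CPM in AdC3KO and 154 against 168 CPM in WT. The 6 endothelial markers summed to 1278 to 1579 CPM in AdC3KO at 4 °C, against 643 to 717 at 30 °C, and to 1202 to 1347 CPM in WT at 4 °C, against 619 to 838 at 30 °C. Those of red blood cells did not overlap between temperatures in AdC3KO (496 to 622 against 245 to 385 CPM) but did in WT (326 to 599 against 276 to 358 CPM). The 4 Schwann cell markers were lower in the cold without overlap, at 20.8 to 31.5 against 40.0 to 51.5 CPM in AdC3KO and 23.5 to 29.9 against 48.9 to 51.5 CPM in WT. The 5 lymphocyte markers were at 1.22 to 2.83 against 3.62 to 4.31 CPM in AdC3KO and overlapped in WT. In AdC3KO the 5 fibroblast markers overlapped (649 to 915 against 582 to 962 CPM). The 5 white adipocyte markers found in the table, of 6 listed, summed to 1008 to 1220.1 CPM in AdC3KO at 4 °C, against 204 to 391 at 30 °C, and to 707 to 1297.5 CPM in WT at 4 °C, against 164 to 426 at 30 °C, with Hoxc10, one of them, at 0 counts in every group but AdC3KO at 30 °C. The 8 macrophage markers summed to 211 to 375 CPM in AdC3KO at 4 °C, against 161 to 242 at 30 °C, and to 267 to 561 CPM in WT at 4 °C, against 162 to 197 at 30 °C. In bulk tissue a change in the number of cells of a type and a change in RNA per cell cannot be told apart, and the part of either in the values above was not tested.

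Genes outside the pathway with the most similar pattern over the 14 libraries, measured as the root mean square difference of centred log2 CPM among 9454 protein-coding genes, were Noct (0.19), St3gal5 (0.19) and Gadd45g (0.27) for Gk. For Dgat1 they were Hacd2 (0.13), Irak2 (0.16) and Csrnp1 (0.16), and for Dgat2 they were Sspn (0.20), Stat5a (0.21) and Slc25a48 (0.21). Stard5 was among the 3 nearest genes of both Gpam (0.11) and Gpat4 (0.15).

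Genes that supply fatty acyl-CoA mostly rose. Of 13 tested, 7 rose and 2 fell in AdC3KO and 8 rose and 2 fell in WT, with a median log2 fold change of 0.92 and 0.71. Acsl1, the main acyl-CoA synthetase of adipocytes, had 5500.2 ± 755 CPM in AdC3KO at 4 °C, against 1571 ± 96.0 CPM at 30 °C (log2 1.81 ± 0.19, SE). In WT it had 6627 ± 1889 CPM at 4 °C, against 1379.7 ± 276 CPM at 30 °C (log2 2.26 ± 0.19, SE). Cd36, a fatty acid transporter, rose by 1.14 ± 0.11 in AdC3KO and by 1.19 ± 0.11 in WT (log2, SE). Acss2, which makes acetyl-CoA from acetate, fell in both genotypes, with a log2 fold change of −0.95 in AdC3KO and −0.88 in WT.

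Genes of triglyceride breakdown were mixed. Of 10 tested, 2 rose and 4 fell in AdC3KO and 2 rose and 2 fell in WT, with a median log2 fold change of −0.27 and −0.15. That is 6 of 10 called in AdC3KO, close to the 63% of all genes, and 4 of 10 in WT, below the 61.4% of all genes. Abhd5, the coactivator of adipose triglyceride lipase, rose to 211 ± 10.96 CPM in AdC3KO at 4 °C, against 49.0 ± 5.47 CPM at 30 °C (log2 2.10 ± 0.11, SE), and by 2.06 ± 0.11 in WT. Hilpda, a lipase inhibitor, rose by 1.76 ± 0.28 in AdC3KO and by 1.71 ± 0.28 in WT (log2, SE). Pnpla3, a lipid droplet protein, fell by 2.00 on the log2 scale in AdC3KO and by 2.03 in WT. The lipase gene Pnpla2 was not called in either genotype. Lipe, also a lipase gene, fell in AdC3KO to 462 ± 76.5 CPM at 4 °C, against 789 ± 53.3 CPM at 30 °C (log2 −0.77 ± 0.18, SE). In WT Lipe was not called (log2 −0.35 ± 0.18, SE). Daglb fell in both genotypes (log2 −1.34 ± 0.21 in AdC3KO and −1.25 ± 0.21 in WT, SE). Ces1f fell in AdC3KO (log2 −0.48 ± 0.19, SE) and was not called in WT.

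Of 20 regulators known to act on these genes, 14 rose and 5 fell in AdC3KO and 14 rose and 4 fell in WT, with a median log2 fold change of 0.72 and 0.77. Ppargc1a, the coactivator of thermogenic and oxidative genes, had 1109 ± 301 CPM in AdC3KO at 4 °C, against 47.1 ± 6.33 CPM at 30 °C (log2 4.56 ± 0.22, SE), and rose by 4.50 ± 0.22 in WT. Srebf1, which drives fatty acid synthesis genes, had 26.3 ± 3.26 CPM in AdC3KO at 4 °C, against 250.3 ± 36.9 CPM at 30 °C (log2 −3.25 ± 0.22, SE), and fell by 3.30 in WT. Cebpa fell by 2.69 in AdC3KO and by 2.23 in WT while Cebpb, another C/EBP factor, rose by 2.94 ± 0.18 and 2.72 ± 0.18 (log2, SE). Irs2, an adaptor of the insulin receptor, rose by 3.27 ± 0.26 in AdC3KO and by 3.62 ± 0.26 in WT (log2, SE).

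**Figure D3:**
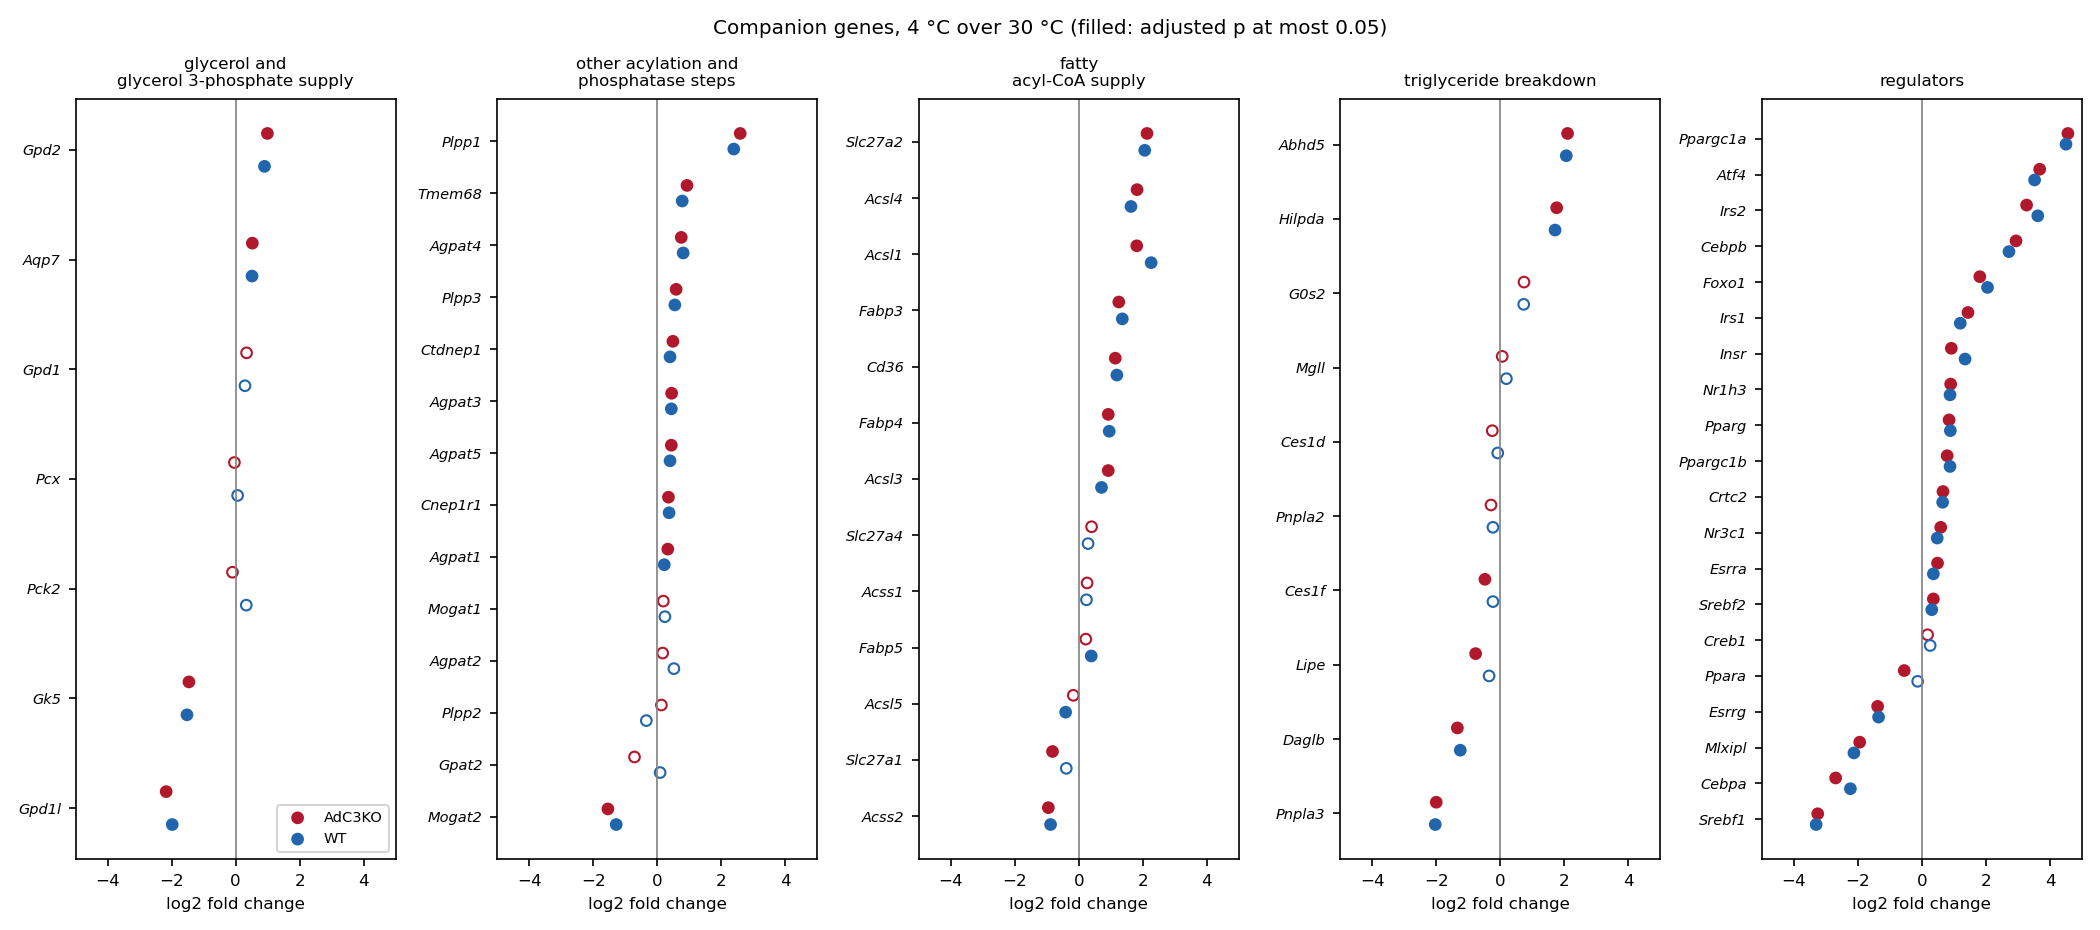
Log2 fold change at 4 °C over 30 °C for the companion genes of 5 lists, with AdC3KO drawn above WT for each gene; filled points have an adjusted p of at most 0.05. Ppargc1a lies farthest right (4.56 in AdC3KO, 4.50 in WT) and Srebf1 farthest left (−3.25 and −3.30).

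Loss of CLSTN3B was not followed by a detected change in any of the 10 genes. At 4 °C 0 of the 10 were called between AdC3KO and WT, where 0.0502% of all genes tested (8 genes) were called and 765 had an unadjusted p under 0.05. DESeq2 called 22 genes there and 0 of the 10, of which 1 had an unadjusted p under 0.05 in edgeR. At 30 °C 0 of the 10 were called, where 0.0439% of all genes (7 genes) were called, 212 had an unadjusted p under 0.05 and DESeq2 called 8, again 0 of the 10, of which 0 had an unadjusted p under 0.05 in edgeR. With so few calls over all genes, 0 of 10 is close to the background and says little about the pathway. The 2 genotypes overlapped for every one of the 10 genes at both temperatures. Over all genes, 2.27% did not overlap at 4 °C and 7.29% at 30 °C, so this too is close to the background.

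The intervals show which differences these libraries could have missed. For Gk the log2 difference of AdC3KO over WT was −0.03 at 4 °C (95% interval −0.27 to 0.21) and 0.17 at 30 °C (−0.11 to 0.45). For Dgat2 it was −0.20 at 4 °C (−0.50 to 0.10) and 0.10 at 30 °C (−0.25 to 0.44), and for Dgat1 it was 0.12 (−0.15 to 0.38) and 0.05 (−0.26 to 0.35). For Pck1 it was −0.16 (−0.42 to 0.10) and 0.08 (−0.22 to 0.37). Those of Gpam, Gpat4, Lpin2 and Lpin3 had point estimates between −0.11 and 0.24. Their interval limits reached from −0.53 (Lpin3 at 30 °C) to 0.58 (Gpat4 at 30 °C). The interval of Lpin1 was the widest at 4 °C apart from that of Gpat3, at −0.57 to 0.27. At 30 °C the widest intervals were those of Gpat3 (−0.58 to 0.50) and Lpin1 (−0.30 to 0.68).

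Gpat3 at 4 °C was the one gene whose interval did not reach 0, at −0.53 (95% interval −0.99 to −0.07, unadjusted p = 0.0273 in edgeR), and it did not pass adjustment over all genes (adjusted p = 0.963 in edgeR). Its mean and SD at 4 °C were 20.7 ± 1.55 CPM over 4 AdC3KO libraries, against 30.0 ± 13.2 CPM over 4 WT libraries. The difference rested mainly on WT library 1, at 48.5 CPM: without it the value was −0.18.

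**Figure D4:**
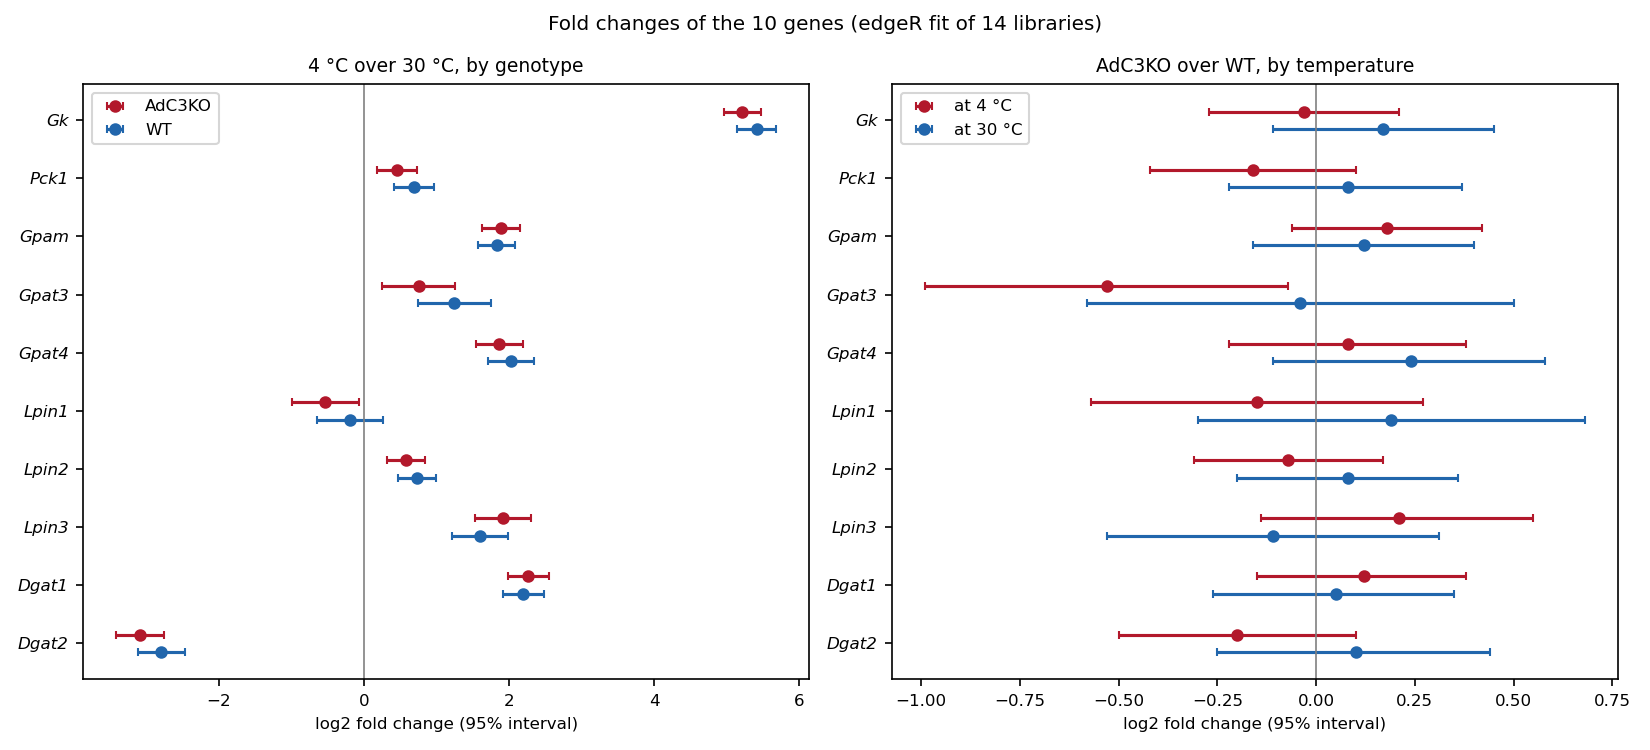
Log2 fold changes of the 10 genes with 95% intervals, at 4 °C over 30 °C in AdC3KO and WT (left) and for AdC3KO over WT at 4 °C and 30 °C (right). Gk (5.22 and 5.42) and Dgat2 (−3.09 and −2.79) stand farthest from 0 on the left, and Gpat3 at 4 °C (−0.53) on the right.

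The cold response itself was compared between genotypes by the interaction term. It was called for 0 of the 10 genes and for 0% of all genes tested in edgeR, where 349 genes had an unadjusted p under 0.05, and for 0 genes in DESeq2. The largest estimate was that of Gpat3 (−0.49, 95% interval −1.20 to 0.22), followed by Lpin1 (−0.34, −0.99 to 0.31), Lpin3 (0.32, −0.22 to 0.86) and Dgat2 (−0.30, −0.75 to 0.16). For Gk it was −0.20 (−0.57 to 0.17). That Lpin1 was called in AdC3KO and not in WT is thus no shown difference between the genotypes. The isozyme ratios did not differ between genotypes by more than their spread either: the log2 ratio of Dgat2 to Dgat1 was 0.11 lower in AdC3KO (difference −0.11, exact permutation p = 0.46, adjusted p = 0.908), that of Lpin1 to the other lipins differed by −0.06 (exact permutation p = 0.723, adjusted p = 0.908) and that of Gpam by 0.01 (exact permutation p = 0.939, adjusted p = 0.939). Of the 64 companion genes tested, 0 were called in either genotype comparison or in the interaction by edgeR or DESeq2, and 3 at 4 °C, 0 at 30 °C and 1 in the interaction had an unadjusted p under 0.05 in edgeR. The 3 at 4 °C were Cebpa (log2 −0.50 ± 0.15, SE, unadjusted p = 0.00364, adjusted p = 0.791 in edgeR), Lipe (−0.49, unadjusted p = 0.0118 in edgeR) and Fabp5 (−0.26, unadjusted p = 0.0342 in edgeR), and the 1 in the interaction was Insr (−0.43, unadjusted p = 0.0483 in edgeR). Cebpa spanned 68.0 to 115 CPM in AdC3KO at 4 °C, against 123 to 170 CPM in WT, without overlap.

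Within groups, some libraries were the highest or lowest for many of the 10 genes. Of these, 9 were highest in library 3 of WT at 30 °C, Lpin1 being the exception, and 7 were lowest in library 1 of that group. In AdC3KO at 30 °C, 6 were highest in library 1. At 4 °C, 6 were lowest in library 4 of AdC3KO and 6 were lowest in library 2 of WT. WT library 3 and AdC3KO library 1 at 30 °C and WT library 2 at 4 °C are among those with muscle transcripts. The share of all genes with their extreme in these libraries was not computed, so the counts have no background to be read against.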

How the data were processed

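Gene counts per library were deposited by the authors as 1 table with 55471 genes. Per the series' design text, reads were trimmed with Trimmomatic, checked with FastQC, aligned to GRCm38/mm10 with STAR and counted with HTSeq-count, and the authors tested with DESeq2. No source used here gives versions or the strand setting. The 5 summary lines of the counter were kept out of library sizes. Of reads in the table, including those lines, 5.95 to 8.19% fell outside genes and 5.53 to 6.03% were ambiguous.

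From these counts, genes were filtered (filterByExpr, minimum count 10) and scaled by TMM (factors 0.822 to 1.21), and 4 group means were fitted to all 14 libraries with edgeR 4.0.16 (robust quasi-likelihood) in R 4.3.3; p-values were Benjamini-Hochberg adjusted over 15949 genes with a threshold of 0.05. The fit was tested on simulated counts with changes put into 200 genes. Of changes between genotypes at 30 °C, it called 17.9% of those of 1.5-fold, 61.2% of 2-fold and 89.4% of 4-fold. At 4 °C the shares were 37.3%, 64.2% and 100%. Intervals are 95%. CPM uses TMM-scaled library sizes. Levels between genes were divided by merged exon length (GENCODE M21, GRCm38). Symbols were found for 55144 identifiers. Ratios were tested by exact permutation of 1 factor within the other. DESeq2 1.42.0, other scalings and filters, left-out libraries and a replicate block were alternatives. The main fit did not pair libraries by the numbers in the titles, and whether those numbers mark pairs is not known.

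The members and all lists were chosen with earlier results of these data known. All 10 members are described; of each companion list, genes were drawn from the up to 6 called genes of largest change with at least 5 CPM in the higher group, or the 2 most abundant. Genes named outside that rule (Gk2, Gykl1, Agpat2, Agpat4, Gpd1 and Pnpla2 in the cold, and Cebpa, Lipe, Fabp5 and Insr between genotypes) were chosen after their values were seen. Precision is limited by 3 or 4 libraries a group; error of counting alone is small at these depths.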

Additional observations from a re-analysis of the deposited data

Results flagged for a closer look

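Dgat1 in WT library 3 at 4 °C had 788 CPM, while the other 3 libraries of its group lay between 722 and 729.7 CPM. The gap to the nearest library was 0.887 of the group's range, above Dixon's 95% critical value for 4 libraries. It was the 1 such case among 20 groups of 4 libraries, and chance flags about 1 in 20. Without that library Dgat1 was called in the cold in both genotypes.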

How the results depend on the processing

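The cold calls of Gk, Gpam, Gpat4, Lpin2, Lpin3, Dgat1 and Dgat2 kept their direction and their side of the threshold in both genotypes under all 22 alternative fits, with log2 fold changes of Gk between 4.99 and 5.30 in AdC3KO and 5.18 and 5.53 in WT, and of Dgat2 between −3.32 and −3.01 in AdC3KO and −3.03 and −2.61 in WT. In WT all 220 values kept their call. In AdC3KO 16 of 220 lost it, all for Pck1, Gpat3 or Lpin1; values of Lpin1 ranged from −0.77 to −0.35 (adjusted p 0.00373 to 0.213 over edgeR and DESeq2). The cause was not tested. No member was called in a genotype comparison or interaction under any alternative, where uncalled estimates took the other sign in 12 of 220 fits at 30 °C, 7 of 220 at 4 °C and 5 of 210 for the interaction. Upper-quartile scaling shifted the median of all genes in the cold to −0.29 in AdC3KO and −0.27 in WT. Leaving out the 5 libraries with muscle transcripts left 1 AdC3KO library at 30 °C, assumed to vary like the others. For each gene, the deviation of log2 CPM from its group mean was taken in every library. Over the tested genes, these deviations correlated at −0.34 to 0.05 between same-numbered libraries of the compared groups. With the replicate number as a block, 9789 genes were called in the cold in AdC3KO and 9437 in WT. Between genotypes 9 were called at 4 °C and 6 at 30 °C, and no member changed its call. Over all genes, DESeq2 called 22 between genotypes at 4 °C, and without the muscle libraries the counts were 3 at 4 °C and 2 at 30 °C; with no filter the count at 4 °C was 12, and at a mean of 5 CPM the counts were 5 and 4. The ratio differences ranged from −5.24 to −5.04 for Dgat2 and from −1.95 to −1.59 for Lpin1.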
